A study of Homo sapiens with 6 samples.

Results

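The miR-302/miR-367 cluster is a run of 5 miRNA hairpins on human chromosome 4, and its mature miRNAs were followed here in exosomes, the small vesicles that cells release into their culture medium. Members were chosen by name, as both arms (5p and 3p) of miR-302a, miR-302b, miR-302c, miR-302d and miR-367, which gave 10 of the 2549 human mature miRNAs on the array. The exosomes came from H9 cells, an established human embryonic stem cell line, in 3 experiments with 1 array for each of 2 colony types in each experiment. All cells were kept on Matrigel, a basement membrane extract, in TeSR-E8 medium, and the labels give no genetic change or drug. Substate 1 stood for colonies with strong binding of the R-10G antibody and no vimentin, and substate 2 for colonies with weaker R-10G staining, vimentin and wide gaps between cells. Substate 1 was at passages 41, 46 and 50 and substate 2 at passages 52, 61 and 65 in experiments 1, 2 and 3, so that substate and later passage cannot be told apart. The labels number the experiments but do not state separate cultures beyond the passage, and p-values therefore measure the spread between these samples. The bulk exosome RNA was labelled in equal amounts for both substates of an experiment, and the number of vesicles was not measured. Fewer vesicles that carry a miRNA and less of it per vesicle cannot be told apart.

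The cluster is transcribed as a single primary transcript from an intron of LARP7, on the strand opposite to that gene, and is switched on by the pluripotency factors OCT4, SOX2 and NANOG. It is among the most abundant miRNA sources of human embryonic stem cells and is silenced as they differentiate. The miR-302 3p arms are the usual guide strands, which repress cell cycle inhibitors and promote the pluripotent state, while the 5p arms are mostly passenger strands that are discarded. miR-367-3p has another seed, which it shares with the miR-25/miR-92 family.

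The guide arms are shown first, and they carry 2 different seeds. Capitals mark the seed, bases 2 to 8 from the 5′ end, and the sequences are those of RefSeq on GRCh38.p14, where the hairpins lie on the minus strand within chr4:112647874-112648557, a span of 684 bp.
hsa-miR-302a-3p: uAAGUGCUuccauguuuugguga
hsa-miR-302b-3p: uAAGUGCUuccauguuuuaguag
hsa-miR-302c-3p: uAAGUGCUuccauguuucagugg
hsa-miR-302d-3p: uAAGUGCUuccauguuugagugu
hsa-miR-367-3p: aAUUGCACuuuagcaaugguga
The 4 miR-302 guide arms shared a seed with each other and had the same first 17 of 23 bases. Positions counted from the 5′ end, miR-302a-3p and miR-302b-3p differed by G19A, G22A and A23G, and miR-302b-3p and miR-302c-3p only by U18C and A22G. Signal of a miR-302 guide arm on the probes of another was not tested, and these arms are read together where they move together. Of the array's human miRNAs with a RefSeq sequence matched by name (2248 of 2549), 10 carried the miR-302 seed and 6 that of miR-367-3p, members included.

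The passenger arms are shown because their seeds differ more among themselves, and because 2 of them gave no signal.
hsa-miR-302a-5p: aCUUAAACguggauguacuugcu
hsa-miR-302b-5p: aCUUUAACauggaagugcuuuc
hsa-miR-302c-5p: uUUAACAUggggguaccugcug
hsa-miR-302d-5p: aCUUUAACauggaggcacuugc
hsa-miR-367-5p: aCUGUUGCuaauaugcaacucu
The seed of miR-302b-5p and miR-302d-5p was the same, and these arms differed by A14G, U16C, G17A and U21G, with 18 of 22 bases alike. In the hairpins, the arms face each other across a loop, as in MIR302A at chr4:112648183-112648251 (capitals mark the mature arms, 5p first).
MIR302A: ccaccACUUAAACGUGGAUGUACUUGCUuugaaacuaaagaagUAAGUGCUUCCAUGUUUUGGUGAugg
MIR367: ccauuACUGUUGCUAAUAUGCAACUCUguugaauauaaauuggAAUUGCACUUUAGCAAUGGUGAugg
MIR367, at chr4:112647874-112647941, is the last of the 5 hairpins in the direction of transcription, after MIR302B, MIR302C, MIR302A and MIR302D.

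Both substates of an experiment were labelled from equal amounts in a single colour, namely 72.4, 100 and 51.4 ng for experiments 1 to 3. Agilent software gave each miRNA a mark of detection and a total signal (probe intensities less background, added up). Detected human miRNAs numbered 310 to 594 per array, correlations between arrays lay between 0.936 and 0.981, and 200 spots per array belonged to the cluster, none of them saturated. Each signal was divided by the array's 99th percentile over all human miRNAs (p99, 125 to 476 intensity units), raised to a common floor of 0.431% of p99 and taken as log2. Limma, blocked by experiment, was run on the 474 miRNAs that at least 3 of 6 arrays detected, and p-values were adjusted over all 474 by Benjamini-Hochberg. Differences are substate 2 minus substate 1, and the number of arrays limits their precision.

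All 5 guide arms and 3 of the 5 passenger arms were detected on all 6 arrays, whereas miR-302d-5p and miR-367-5p were detected on none. Over the array, 11.3% of the 2549 human miRNAs were detected on all 6 arrays. On every array, 26 miRNAs had a signal above p99, and 5 of these were the guide arms of the cluster. For the undetected miR-302d-5p and miR-367-5p, 0 of 240 spots were well above background, and no probe value reached 3 times its error. Of the cell type check, 17 miRNAs known from differentiated or other cells (8 let-7 members, miR-98-5p, both arms of miR-9, miR-124-3p, miR-122-5p, miR-145-5p, miR-143-3p, miR-451a and miR-1-3p), 15 were detected on no array. The brain miRNA miR-124-3p was detected on all 6, at −5.86 ± 0.19 in substate 1 and −5.28 ± 0.33 in substate 2 (log2 of p99 units, SD, n = 3; limma adjusted p = 0.215), and miR-145-5p was detected on 3 arrays at the floor. The summed signal of these 17 was 1.93% to 2.00% of p99 in substate 1 and 2.35% to 3.25% in substate 2, and its part in the differences below was not tested.

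The guide arm miR-302a-3p had signals of 3.58, 2.50 and 4.03 times p99 in substate 1 of experiments 1, 2 and 3, and of 2.47, 2.98 and 2.34 times p99 in substate 2. It was lower in substate 2 in experiments 1 and 3 and higher in experiment 2, so that the substates overlapped. The log2 difference was −0.36 (SE 0.26, limma adjusted p = 0.425). For miR-302b-3p the signals were 2.05, 1.15 and 2.39 times p99 in substate 1 and 1.08, 1.39 and 1.30 times p99 in substate 2. This arm, from the first hairpin of the transcript, had the same order of arrays within each experiment, with log2 differences of −0.92, 0.28 and −0.88 and a mean of −0.51 (SE 0.33, limma adjusted p = 0.384). The signals of miR-302c-3p were 1.65, 1.39 and 1.88 times p99 in substate 1 and 1.35, 1.56 and 1.31 times p99 in substate 2. Its mean log2 difference of −0.22 was the smallest in size of the 4 miR-302 guide arms (SE 0.18, limma adjusted p = 0.466). Signals of miR-302d-3p were 1.92, 1.14 and 1.61 times p99 in substate 1 and 1.26, 1.38 and 1.02 times p99 in substate 2. Here too experiments 1 and 3 were lower and experiment 2 higher in substate 2, with a mean log2 difference of −0.33 (SE 0.25, limma adjusted p = 0.431). Leaving out an experiment in turn moved the mean difference between −0.66 and −0.14 for miR-302a-3p, −0.90 and −0.30 for miR-302b-3p, −0.41 and −0.06 for miR-302c-3p and −0.63 and −0.17 for miR-302d-3p, in each case furthest from 0 without experiment 2.

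miR-367-3p, the guide arm with the miR-25/miR-92 seed, had signals of 2.54, 2.36 and 4.05 times p99 in substate 1 and of 1.96, 4.78 and 4.05 times p99 in substate 2. It was lower in substate 2 in experiment 1, higher in experiment 2 and nearly equal in experiment 3 (log2 differences −0.37, 1.02 and −0.0016). The mean log2 difference of 0.21 had an SE of 0.35 and a limma adjusted p of 0.713, and its direction rested on experiment 2: without that experiment it was −0.19, and without experiment 1 it was 0.51. It was −0.35 when arrays were scaled by labelled amount in place of p99.

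**Figure D1:**
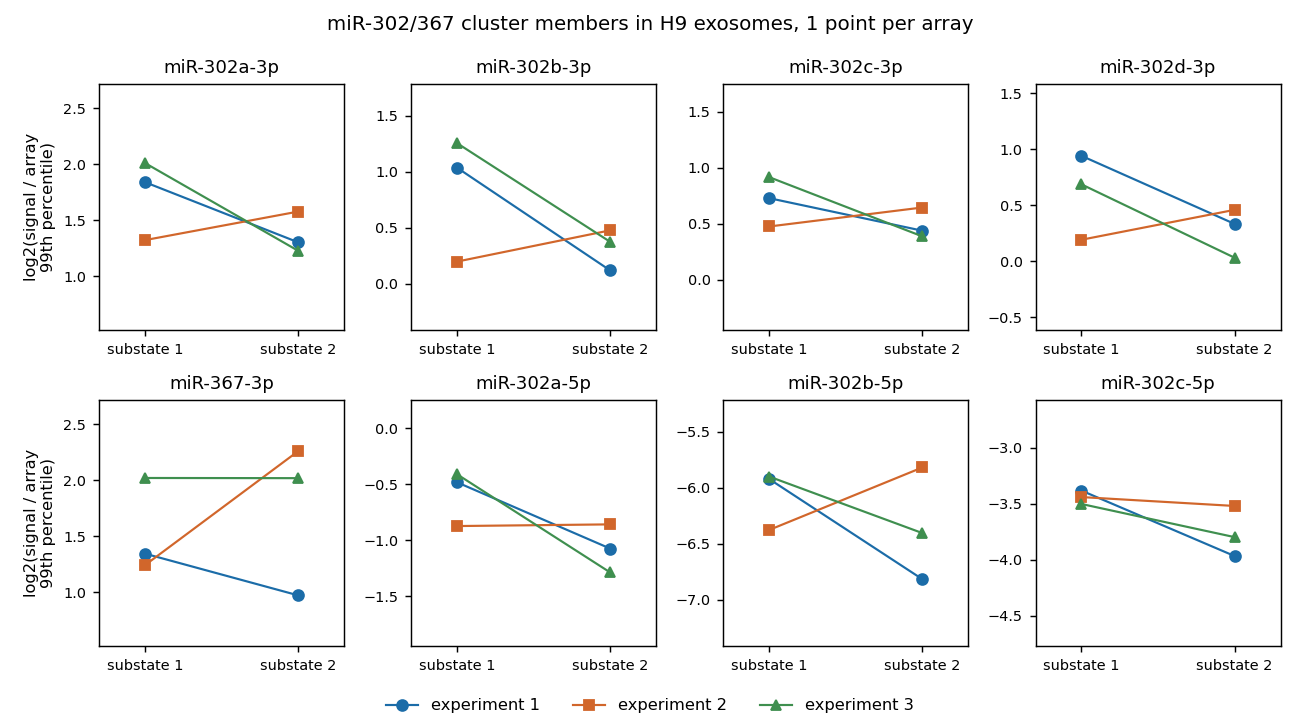
Signal of the 8 detected cluster members as log2 of signal over the array's 99th percentile (y axis) in substate 1 and substate 2 (x axis), with 1 point per array and lines joining the arrays of an experiment. Most lines fall in experiments 1 and 3 and rise in experiment 2, as for miR-302a-3p with −0.54, 0.25 and −0.78.

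Among the passenger arms, miR-302a-5p had signals of 0.716, 0.546 and 0.752 times p99 in substate 1 and of 0.475, 0.552 and 0.410 times p99 in substate 2. Its arrays of experiment 2 were nearly level while the others were lower in substate 2, and the log2 difference was −0.48 (SE 0.23, limma adjusted p = 0.280). The passenger arm miR-302b-5p lay near the floor, with signals of 0.0165, 0.0120 and 0.0167 times p99 in substate 1 and 0.00887, 0.0177 and 0.0118 times p99 in substate 2. The highest and the lowest of its 6 arrays were both of substate 2, and the log2 difference of −0.28 (SE 0.36, limma adjusted p = 0.629) became 0.027 without experiment 1, −0.17 without experiment 3 and −0.70 without experiment 2. For miR-302c-5p the signals were 0.0958, 0.0921 and 0.0882 times p99 in substate 1 and 0.0639, 0.0872 and 0.0719 times p99 in substate 2. It was the only tested member lower in substate 2 in all 3 experiments after scaling to p99. It was also the only member whose substates did not overlap on that scale, although the nearest arrays (0.0882 and 0.0872) differed little. Its log2 difference was −0.32 (SE 0.14, limma adjusted p = 0.274). With normexp background correction it was 0.046, where the median of all tested miRNAs was 0.36. On the log2 values deposited by the authors, miR-302a-3p, miR-302a-5p, miR-302b-3p and miR-302c-3p were also lower in all 3 experiments, without overlap of the substates. On those values miR-302d-3p was lower in all 3 experiments too, with overlap. How many of all tested miRNAs showed these patterns on the deposited values was not counted. The median difference there was −0.41 for the members and 0.0048 for all tested miRNAs.

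**Figure D2:**
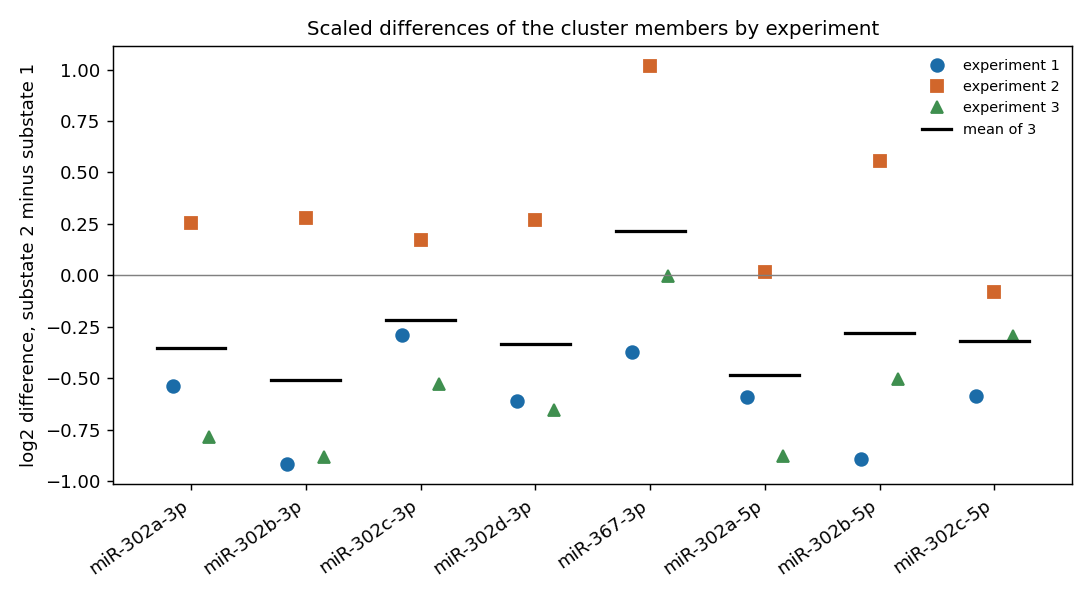
Log2 difference, substate 2 minus substate 1, for each of the 8 tested members, with 1 point per experiment and a bar at the mean of the 3. The points of experiment 2 lie above those of experiments 1 and 3 for every member, and only miR-302c-5p has all 3 points below 0.

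Limma called 0 of the 8 tested members higher and 0 lower at an adjusted p under 0.05 and at least 2-fold, where 0% of all 474 tested miRNAs were called higher and 0% lower. At an unadjusted p under 0.05 the count of members was also 0, against 9.7% of tested miRNAs higher and 13.3% lower, and the methods' t-test with Benjamini-Hochberg adjustment over all 474 called none. The study tested only miRNAs that differed by at least 2-fold. After scaling to p99, 0 of the 8 members had a mean difference of that size, and the share of all tested miRNAs was not counted. The adjusted p of the members ran from 0.274 to 0.713. On the same scale, lower in all 3 experiments was 1 of 8 members, against 23.4% of all tested miRNAs. Higher in all 3 was 0 of 8, against 21.1%. Substates did not overlap, with substate 2 lower, for that same member, against 14.1% of tested miRNAs. Scaled by labelled amount, miR-302a-5p differed by −1.05 and miR-302b-3p by −1.07, both over 2-fold, while the other tested members stayed under it. Their unadjusted limma p was 0.022 and 0.034, and the adjusted p 0.116 and 0.132. Unadjusted limma p was also under 0.05 for miR-302a-3p (0.044), miR-302c-5p (0.035) and miR-302d-3p (0.048). It was not for miR-302b-5p, miR-302c-3p and miR-367-3p. The shares of all tested miRNAs over 2-fold or under that p were not counted with this scaling. All tested miRNAs had a median difference of −0.44 on that scale.

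After scaling to p99, the members shared a pattern across experiments, and 7 of the 8 mean differences were below 0. In experiments 1 and 3 lower and in experiment 2 higher in substate 2 were 7 of the 8 members, against 7.17% of all tested miRNAs, with the difference of miR-367-3p in experiment 3 close to 0. The median of the members was −0.59, 0.26 and −0.59 in experiments 1, 2 and 3, and that of all tested miRNAs was −0.04, 0 and 0. Members of the same transcript with near-identical guide arms are not independent, and no test was made of this pattern. Averaged over the 3 experiments, the members' median was −0.31 ± 0.49 (SD, n = 3), against −0.01 ± 0.02 for all tested miRNAs. Only 289 of the 474 tested miRNAs were detected on all 6 arrays, so values at the common floor enter the latter median and its SD. In the 2 alternatives without a common floor it was 0.10 and 0.14, while the members' median stayed at −0.31. Without experiment 2 the members' average was −0.59, without experiment 1 −0.17 and without experiment 3 −0.16.

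**Figure D3:**
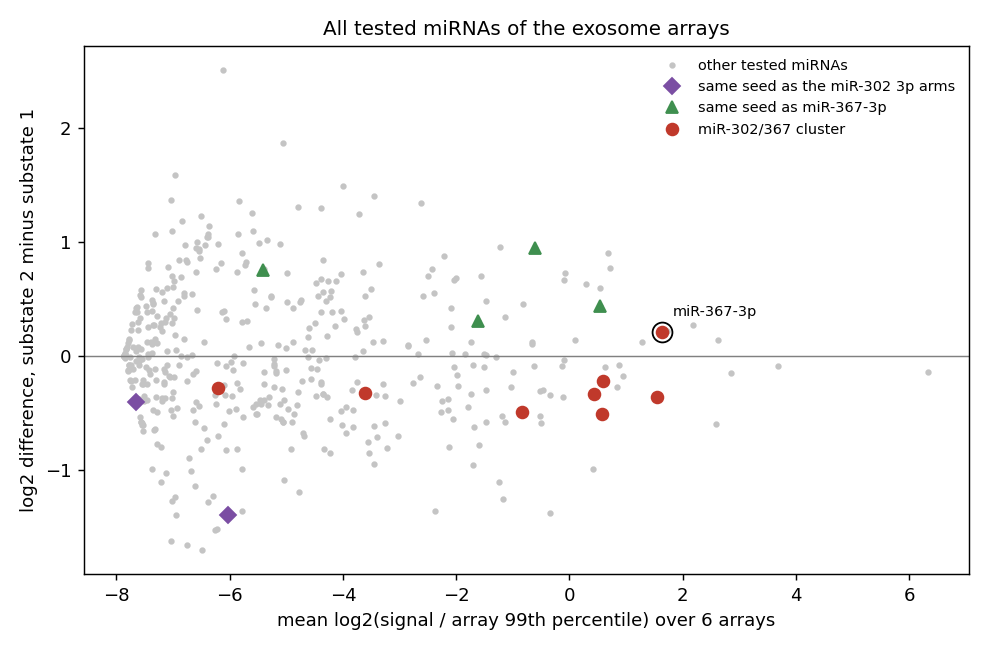
Mean log2 difference, substate 2 minus substate 1, against mean log2 signal for the 474 tested miRNAs (grey) with the 8 cluster members marked. The members lie between −0.51 and 0.21, inside the spread of the other miRNAs.

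The scaling to p99 bears on the direction in experiment 2. The p99 itself changed by −0.82, −0.33 and −0.52 on the log2 scale from substate 1 to substate 2. Before scaling, all 8 members were lower in substate 2 in experiment 1, with a median of −1.41, and in experiment 3, with a median of −1.12. In experiment 2, 6 of 8 were lower before scaling, with a median of −0.07. The unscaled signal of miR-302b-3p in substate 2 was 29.9%, 96.3% and 37.7% of that in substate 1 in experiments 1, 2 and 3, and that of miR-367-3p was 43.6%, 161% and 69.4%. Over all tested miRNAs detected on both arrays of an experiment, the unscaled median was −0.89, −0.32 and −0.45, so that the members' median lay below it in experiments 1 and 3 and above it in experiment 2 on either scale, while miR-302c-5p was below it in experiment 2 as well. On the log2 values deposited by the authors, all miR-302 guide arms were lower in substate 2 in experiment 2 as well. The same held for miR-302a-5p and miR-302c-5p, while miR-302b-5p and miR-367-3p were higher. There miR-302a-3p went from 1.05 to 0.89 and miR-302c-3p from 0.20 to −0.04. Experiment 1 was hybridised on slide 1 and read with a later software version than experiments 2 and 3, which shared slide 2. The part of slide and software version in the differences was not tested.

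A ratio of 2 members on an array does not depend on how the array was scaled. The log2 of miR-367-3p minus the mean of the 4 miR-302 guide arms was 0.21, 0.69 and 0.80 in substate 1 and 0.42, 1.47 and 1.51 in substate 2 of experiments 1, 2 and 3. It was higher in substate 2 in every experiment, by 0.22, 0.78 and 0.71, and experiment 1 changed least, while the arrays of the substates overlapped because experiment 1 had lower values throughout. The mean change was 0.57 ± 0.31 (SD, n = 3; two-sided exact permutation of signs, p = 0.25, the smallest that 3 experiments allow), so that it could not pass a threshold of 0.05. On slide 2 the change was 0.78 and 0.71, and on slide 1 it was 0.22. Against single guide arms the mean change was 0.57 for miR-302a-3p, 0.72 for miR-302b-3p, 0.43 for miR-302c-3p and 0.55 for miR-302d-3p. The difference had the same sign in all 3 experiments for each of these arms except miR-302c-3p, where experiment 1 gave −0.08. The ratio was chosen for display after the members' values had been seen, and it shows unequal change alone, not which of the arms changed.

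**Figure D4:**
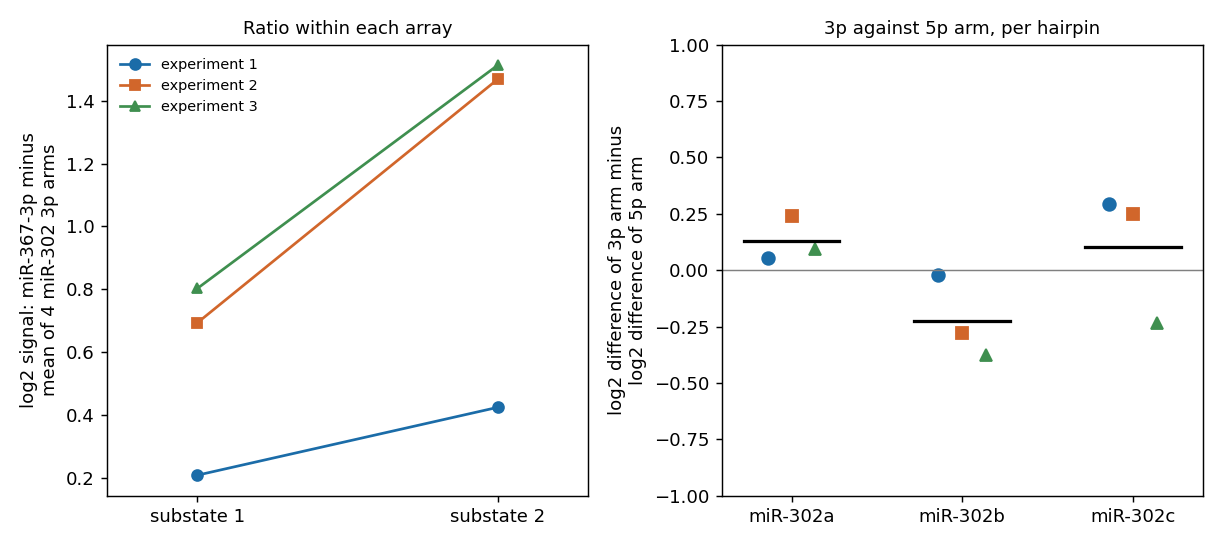
Log2 of miR-367-3p minus the mean of the 4 miR-302 guide arms on each array (y axis), by substate, with lines joining the arrays of an experiment. All 3 lines rise from substate 1 to substate 2, by 0.22, 0.78 and 0.71.

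Guide and passenger arms of the same hairpin were compared by their changes in the 3 hairpins with both arms measured. The 3p arm of miR-302a changed by 0.05, 0.24 and 0.09 more than its 5p arm (mean 0.13 ± 0.10, SD, n = 3; exact sign-flip permutation test, p = 0.25, adjusted over the 3 hairpins p = 0.375). For miR-302b the 3p arm changed by −0.02, −0.28 and −0.38 relative to the 5p arm (mean −0.23 ± 0.18, SD, n = 3; exact permutation p = 0.25, adjusted p = 0.375). miR-302c gave 0.29, 0.25 and −0.23 (mean 0.10 ± 0.29, SD, n = 3; exact permutation p = 0.5, adjusted p = 0.5). The sign of this difference was the same in all experiments for miR-302a and miR-302b, opposite to each other, and mixed for miR-302c. The miR-302b comparison rests on miR-302b-5p, which lay near the floor. Its 2 probes above 3 times their error on all 6 arrays had mean differences of −0.04 and −0.31, a gap of 0.277. The other 2 hairpins, miR-302d and miR-367, had a detected 3p arm and an undetected 5p arm on all 6 arrays.

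Each member was read by several probes, which gave nearly the same account. Of 24 probes for the 8 tested members, 20 were above 3 times their error on all 6 arrays, and 58 of their 60 differences within an experiment had the sign of the member's total signal. The exceptions were a miR-302a-5p probe in experiment 2 (−0.04) and a miR-367-3p probe in experiment 3 (0.01), both where the member itself was nearly level. Among the probes left out, a weak miR-302d-3p probe gave −0.12 in experiment 2, against 0.27 for the member. That probe gave −0.65 in experiment 1, against −0.61. A left-out miR-302b-5p probe gave 0.26 in experiment 2, against 0.56. The gap between the highest and lowest mean log2 difference among the probes of a member ran from 0.014 for miR-367-3p to 0.277 for miR-302b-5p, which lay near the floor. Replicate spots of a probe had a median coefficient of variation of 4.95%. Between experiments, the SD of a member's log2 difference was 0.25 to 0.75.

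**Figure D5:**
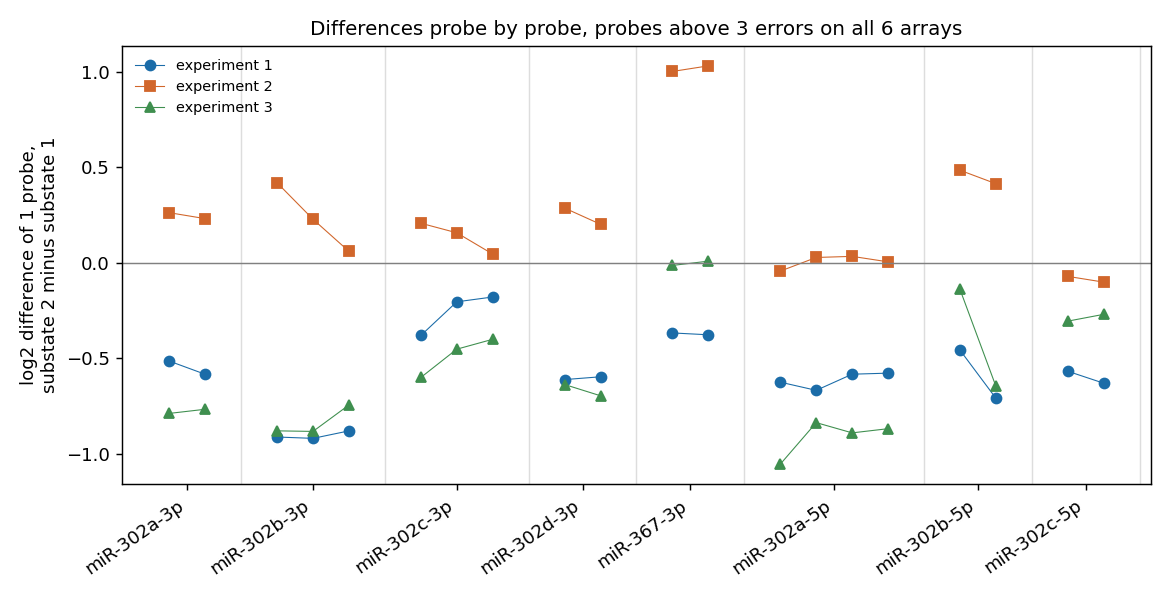
Log2 difference, substate 2 minus substate 1, of each of the 20 probes above 3 errors on all 6 arrays, by member and experiment. Probes of a member lie close together within an experiment, and 58 of the 60 values share the sign of the member.

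Across the 6 arrays, the log2 signals of the 4 miR-302 guide arms had pairwise correlations of 0.806 to 0.988, and those of miR-367-3p with the 7 measured miR-302 arms were −0.0309 to 0.658. On the deposited log2 values the guide arms had 0.755 to 0.952, and miR-367-3p had −0.462 to 0.407, negative with 5 of the 7, so that the sign of the latter depends on the scaling. These 6 points share experiment, slide and scaling, and the values are a description. By the same measure, the non-members most like the mean of the cluster, out of 452 compared with a median correlation of −0.01, were miR-7-5p (0.946), miR-765 (0.901), miR-4778-5p (0.890), miR-664b-3p (0.880) and miR-483-5p (0.880). miR-7-5p, a miRNA known from neural and endocrine tissue, differed by −1.69, 1.02 and −1.43 in experiments 1, 2 and 3, the same order of signs as the miR-302 guide arms (limma adjusted p = 0.532).

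The miRNAs that share a seed with the cluster from other loci were read beside it. Of 8 with the miR-302 3p seed (miR-302e, miR-372-3p, miR-373-3p and 5 of the miR-520 group, with miR-520b and miR-520e matched under their newer 3p names and so not among those counted by name above), 4 were detected on any array and 0 on all 6. The 2 tested were lower in substate 2 on average, miR-520c-3p from −5.34 ± 0.38 to −6.73 ± 0.98 (log2 of p99 units, SD, n = 3) and a difference of −1.39 (limma adjusted p = 0.280), and miR-520b by −0.40 near the floor. Neither of these 2 was detected in substate 2 of experiment 3, where both were set to the floor. All substate 2 values of miR-520b were at the floor, as was its substate 1 value in experiment 2, so that the size of its difference depends on the floor. It was −0.61, 0 and −0.58 by experiment. By experiment, miR-520c-3p differed by −0.67, −0.54 and −2.97. With normexp correction their differences ran from 0.14 to 0.37, where the median of all tested miRNAs was 0.36. Of 5 with the miR-367-3p seed, miR-32-5p was undetected and the other 4 were detected on all 6 arrays and higher in substate 2 in all 3 experiments, against 21.1% of all tested miRNAs. miR-363-3p, of the miR-106a cluster on the X chromosome, had log2 signals of −1.08 ± 0.09 in substate 1 and −0.13 ± 0.38 in substate 2 (SD, n = 3) and so differed by 0.95 (limma adjusted p = 0.169), and miR-92b-3p differed by 0.76, miR-92a-3p by 0.44 and miR-25-3p by 0.31, with adjusted p of 0.215 to 0.263. Under scaling by labelled amount 2 of these 4 were lower. Limma called 0 of these 6 tested miRNAs.

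The other cluster known from human embryonic stem cells, miR-371 to miR-373, had 4 of 8 listed arms detected on any array and 1 on all 6. miR-371b-5p differed by 0.09 and miR-371a-5p by −0.13 (limma adjusted p of 0.494 and 0.846). Its summed signal was 11.3% to 17.9% of p99 in substate 1 and 12.7% to 18.1% in substate 2, ranges that overlapped.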

How the data were processed

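Exosomes were precipitated with ExoQuick-TC and RNA was extracted with miRNeasy for 1-colour Agilent SurePrint G3 arrays. The authors deposited scanner files with the intensity of 50980 human miRNA spots (5893 probes) from Agilent Feature Extraction 12.0.3.2 (experiment 1) or 11.5.1.1, not normalized between arrays. The deposited log2 values of the authors were an alternative. They were 1.21 to 1.61 times p99 in scale, with array medians of −12.73 to −10.88, and their centring and the stated 1 ng correction could not be traced. Signals were scaled, floored and tested with limma 3.58.1 in R 4.3.3, and figures used matplotlib 3.10.9. Self-tests ran on simulated data.

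Experiments pair the samples by their numbers in the labels and by the paired test of the study. Paired arrays deviated together in experiments 1 and 3 (r = 0.674 and 0.517) and hardly in experiment 2 (0.0307). All 10 members, same-seed miRNAs, miRNAs of other cells and of miR-371 to miR-373, and the 5 miRNAs most like the cluster were named by rule. Members and lists were chosen with earlier results of these data known. The 16 alternatives changed floor, scaling, probe summary, background correction, source of values, filter, block, test, threshold or experiments. The build behind the array's miRNA annotation was not given in the sources used here. Coordinates are those of the RefSeq table.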

Additional observations from a re-analysis of the deposited data

How the results depend on the processing

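The 4 miR-302 guide arms and miR-302a-5p were lower in substate 2 on average under all 16 alternatives. Changes of floor, filter, block, test or threshold cannot move the mean difference of these arms. Only changes of scaling, probe summary, background correction, source of values or experiments could alter it. No member was called at an adjusted p under 0.05 and 2-fold under any alternative. Without the replicate block the calls over all miRNAs were 0 higher and 1 lower (miR-519d-3p), and no member's call changed under it, with a smallest adjusted p of 0.243. With normexp correction the calls were 1 higher (miR-130b-3p) and 2 lower (miR-7107-5p, miR-7110-5p), and with miRNAs detected on all 6 arrays they were 5 higher (miR-130b-3p, miR-27b-3p, miR-301b-3p, miR-361-5p, miR-421) and 2 lower (miR-4644, miR-7107-5p), all named after their values were seen. With normexp, miR-302b-5p became 0.32 (limma adjusted p = 0.0234, under 2-fold) and miR-302c-5p 0.046, with all tested miRNAs at a median of 0.36, and the arm differences of miR-302a and miR-302c became −0.049 and −0.19. Scaling by labelled amount moved the members' median to −0.87, with all tested miRNAs at −0.44, and miR-367-3p to −0.35 (adjusted p = 0.594). Both arrays of an experiment had the same labelled amount, so this scaling equals no scaling within an experiment. It differs from the main one by the change of p99, which was −0.82, −0.33 and −0.52 in experiments 1 to 3. The cause of the shifts with normexp was not tested. Leaving out an experiment gave members' medians of −0.59 to −0.16, miR-367-3p values of −0.19 to 0.51 and miR-302b-5p values of −0.70 to 0.027. The change of miR-367-3p minus the miR-302 guide arms stayed above 0, from 0.36 to 0.74. The floor moved no difference of a detected member, and 3 experiments limit every p.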

Other observations

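The cluster's share of the summed signal of detected miRNAs was 6.73%, 4.64% and 6.91% in substate 1 of experiments 1, 2 and 3 and 4.72%, 6.74% and 5.45% in substate 2 (6.09% ± 1.26 and 5.63% ± 1.02, SD, n = 3), so that the substates overlapped. The 4 miR-302 guide arms made up 4.22% ± 0.97 of it in substate 1 and 3.44% ± 0.39 in substate 2, and miR-367-3p 1.48% ± 0.36 and 1.90% ± 0.75. The passenger arms made up 0.390% ± 0.058 and 0.300% ± 0.046. These shares had no test and depend on which other miRNAs were detected, from 310 to 594 per array.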
